A study of Mus musculus with 6 samples.

Results

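The genes described here are Cdkn2a and 4 other inhibitors of cyclin-dependent kinases, Cdkn2b, Cdkn2c, Cdkn2d and Cdkn1b. They were measured in ovarian surface epithelial (OSE) cells from mouse ovarian tumours and were chosen by name. The choice was made with the signals of these arrays in view, because Cdkn2a was known to be high in cells homozygous for the p53 R172H mutation. They make up 5 of the 18194 genes named on the array, and 6 of its 45101 probe sets. Each of the 5 genes passed the filter on dim genes. A probe set is a group of short oligonucleotides that report transcript of 1 gene, and its signal is a linear intensity.

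The series holds 6 single-colour Affymetrix arrays of cells that the labels call P/K OSE cells, an abbreviation they do not spell out. The 2 homozygous arrays came from cells carrying the R172H mutation on both p53 alleles, from mice of mixed background aged 4 weeks. The 2 heterozygous arrays came from cells with 1 R172H allele and 1 wild-type allele, from mice aged 9 weeks (array 1) and 12 weeks (array 2). The 2 wild-type arrays came from cells expressing wild-type p53, from mice aged 9 weeks. All samples are labelled as tumour cells that were trypsinised, plated and collected without passage. The source label of the homozygous samples reads Trp63 where their titles name p53, and the titles were followed. Homozygosity and an age of 4 weeks cannot be told apart in this design. The labels do not say whether the 2 arrays of a group came from separate animals or cultures, so a p-value measures only the spread between these samples.

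The INK4 proteins, encoded by Cdkn2a, Cdkn2b, Cdkn2c and Cdkn2d, bind CDK4 and CDK6 and keep them from D-type cyclins. RB then stays unphosphorylated and holds E2F factors off the genes of S phase. Cdkn1b encodes p27Kip1, a member of the CIP/KIP family, which acts mainly on cyclin E-CDK2 and is controlled largely by protein turnover. Cdkn2a is unusual in encoding 2 unrelated proteins from separate first exons, the INK4 protein p16Ink4a and p19Arf. p19Arf binds MDM2 and releases p53 from it, and cells that have lost p53 function are known for high Cdkn2a products in many tumour types.

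The 3 start sites of the Ink4b-Arf-Ink4a locus are shown first, because Cdkn2a has a single probe set, and which of its 2 transcripts the probes read was not tested. All 5 members matched a RefSeq entry, with 7 starts in all, on build GRCm38.p6. Each window holds the 250 bases before a start, and capitals mark matches on either strand to the GC box letters GGGCGG or to the E2F-type letters TTTNNCGC. The upstream Cdkn2a start, which begins the p19Arf transcript, has its window at chr4:89294620-89294869. The downstream Cdkn2a start, which begins the p16Ink4a transcript, has its window at chr4:89282193-89282442. The Cdkn2b window lies at chr4:89311033-89311282. All 3 are read from the minus strand, 5′ to 3′.
Cdkn2a upstream start: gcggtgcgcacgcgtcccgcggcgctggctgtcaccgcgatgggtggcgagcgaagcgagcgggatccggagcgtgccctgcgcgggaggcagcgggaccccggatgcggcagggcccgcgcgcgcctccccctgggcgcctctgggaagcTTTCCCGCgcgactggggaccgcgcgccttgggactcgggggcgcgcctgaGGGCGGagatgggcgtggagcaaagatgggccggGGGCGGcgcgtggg
Cdkn2a downstream start: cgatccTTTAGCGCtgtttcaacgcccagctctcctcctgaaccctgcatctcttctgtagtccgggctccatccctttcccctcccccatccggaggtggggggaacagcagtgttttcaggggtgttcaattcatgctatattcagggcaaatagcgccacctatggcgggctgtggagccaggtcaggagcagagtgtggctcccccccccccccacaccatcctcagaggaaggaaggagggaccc
Cdkn2b start: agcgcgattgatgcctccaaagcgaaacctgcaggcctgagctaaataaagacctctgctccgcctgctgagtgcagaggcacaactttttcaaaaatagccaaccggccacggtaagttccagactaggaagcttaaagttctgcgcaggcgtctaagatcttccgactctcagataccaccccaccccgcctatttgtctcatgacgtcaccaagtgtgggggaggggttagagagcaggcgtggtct

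The p19Arf window had a GC content of 78.4%, higher than 98.1% of the 32817 RefSeq windows of this length, and 40 CpG dinucleotides against a median of 6. It held 2 GC boxes and 1 E2F-type match, TTTCCCGC, which did not overlap. The p16Ink4a window was richer in GC than 72.1% of windows and had 7 CpG dinucleotides, with 1 E2F-type match, TTTAGCGC, and no GC box. It also held the T-box core letters GGTGTG once, which occur in 16.3% of all windows. The Cdkn2b window, with a GC content of 53.6% and 12 CpG dinucleotides, held none of the letters searched. The GC box letters occur in 32.7% of windows and the E2F-type letters in 4.28%, so a match describes the window and is not a measured binding site. The search also covered the TATA letters TATAAA and the E-box letters CACGTG, neither of which occurred in these 3 windows. The 2 Cdkn2a starts lie 12427 bases apart, and the Cdkn2b start lies 16413 bases from the upstream Cdkn2a start.

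The arrays were compared before the members were described. Median signal ran between 41.1 and 60.6 across the 6 arrays, and the first principal component of the tested genes held 72.0% of the variance. The homozygous arrays differed most from each other: the SD over all tested genes of the log2 difference between the 2 arrays was 1.30 in the homozygous pair, 0.55 in the heterozygous pair and 0.60 in the wild-type pair. The scores on that component were -134.8 for array 1 and -40.3 for array 2 of the homozygous pair, and 35.7 to 54.2 for the other 4 arrays. Of 12 ovarian surface markers, 11 were above background in both homozygous arrays and 12 in both arrays of each other group. Their summed signal was 61477 to 65776 in homozygous cells, 139755 to 174495 in heterozygous cells and 153255 to 195810 in wild-type cells. The similar sums of homozygous arrays 1 and 2 hid splits in both directions. Krt18 gave 25436 and 5623 and Krt19 8282 and 947, whereas Krt7 gave 60.5 and 1729 and Aldh1a2 1.06 and 1979. In the other 4 arrays Krt7 lay between 11838 and 17717 and Aldh1a2 between 17461 and 19538. Krt18 lay there between 6247 and 12233, so homozygous array 1 was above and homozygous array 2 below them all. Krt19 lay there between 10234 and 21496, above both homozygous arrays. The log2 ratio of 3′ to 5′ actin signal, a sign of RNA integrity, was 0.39 to 0.59 in homozygous arrays, 0.66 to 0.96 in heterozygous arrays and 0.74 to 0.77 in wild-type arrays.

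Cdkn2a was far brighter in both homozygous arrays than in any other. Its signal was 8180 and 6769 in homozygous cells, 492 and 598 in heterozygous cells, and 639 and 237 in wild-type cells. The homozygous arrays did not overlap with the others, whereas the wild-type arrays spanned the heterozygous ones. The mean log2 signal was higher by 4.26 ± 0.50 in homozygous than in wild-type cells (limma SE, n = 2 each), a 19.1-fold ratio of geometric means. Against heterozygous cells the log2 difference was 3.78 ± 0.50, a 13.7-fold ratio. Both values come from the contrasts that chose the gene, so they are given as a description without a test. They also share the homozygous arrays.

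Among all 10916 genes tested, only 4 had a larger log2 difference of homozygous over wild-type cells than Cdkn2a, which is 0.0366% of them. Without homozygous array 1, the array farthest from the rest, the difference from wild-type cells was 4.12, and without homozygous array 2 it was 4.39. The value depended more on the wild-type arrays: leaving out wild-type array 1 gave 4.97, and leaving out the other one gave 3.54. The SD of log2 signal was 1.01 in the wild-type pair, against 0.19 in the homozygous and 0.20 in the heterozygous pair. In bulk RNA, a larger share of cells with Cdkn2a transcript and more transcript per cell cannot be told apart.

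The choice of genes turned on the high signal of the homozygous arrays, and the heterozygous and wild-type arrays were tested against each other. Their signals also entered the contrasts behind the choice, so this test is not wholly independent of it. Cdkn2a differed by 0.48 ± 0.50 on the log2 scale between heterozygous and wild-type cells (95% interval -0.79 to 1.75, limma adjusted p = 0.99996). The interval includes a rise of over 1 log2 unit as well as a fall, so a change of that size was not detectable with 2 arrays a group. The sign also turned with the arrays used: leaving out wild-type array 2 gave a difference of -0.24, and leaving out wild-type array 1 gave 1.19.

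Cdkn2b encodes p15Ink4b and lies next to Cdkn2a in the RefSeq gene order. Its signal was 1522 and 2149 in homozygous cells, 1117 and 1107 in heterozygous cells, and 899 and 931 in wild-type cells. The 3 groups did not overlap, with the homozygous arrays highest and the wild-type arrays lowest. The log2 difference was 0.98 ± 0.26 against wild-type cells, a 1.98-fold ratio, and 0.70 ± 0.26 against heterozygous cells, a 1.63-fold ratio (limma SE, n = 2 each). Without homozygous array 2 the difference from heterozygous cells was 0.45. Larger differences of homozygous over wild-type cells were found for 9.16% of tested genes. Between heterozygous and wild-type cells Cdkn2b differed by 0.28 ± 0.26 (95% interval -0.37 to 0.93, limma adjusted p = 0.99996).

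Cdkn1b, the p27Kip1 gene, was also highest in both homozygous arrays. Its brighter probe set gave 3684 and 4452 in homozygous cells, 2872 and 2136 in heterozygous cells, and 2108 and 2578 in wild-type cells. Here the heterozygous and wild-type arrays overlapped with each other but not with the homozygous ones. The log2 difference was 0.80 ± 0.27 against wild-type cells, a 1.74-fold ratio, and 0.71 ± 0.27 against heterozygous cells, a 1.64-fold ratio. The second Cdkn1b probe set was dim and did not separate the groups, at 87.9 and 80.0 in homozygous cells, 56.5 and 105 in heterozygous cells, and 95.2 and 59.0 in wild-type cells. With both probe sets averaged on the log2 scale, the difference of homozygous over wild-type cells was 0.48 and that over heterozygous cells 0.42. Heterozygous cells differed from wild-type cells by 0.09 ± 0.27 (95% interval -0.60 to 0.78, limma adjusted p = 0.99996).

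**Figure D1:**
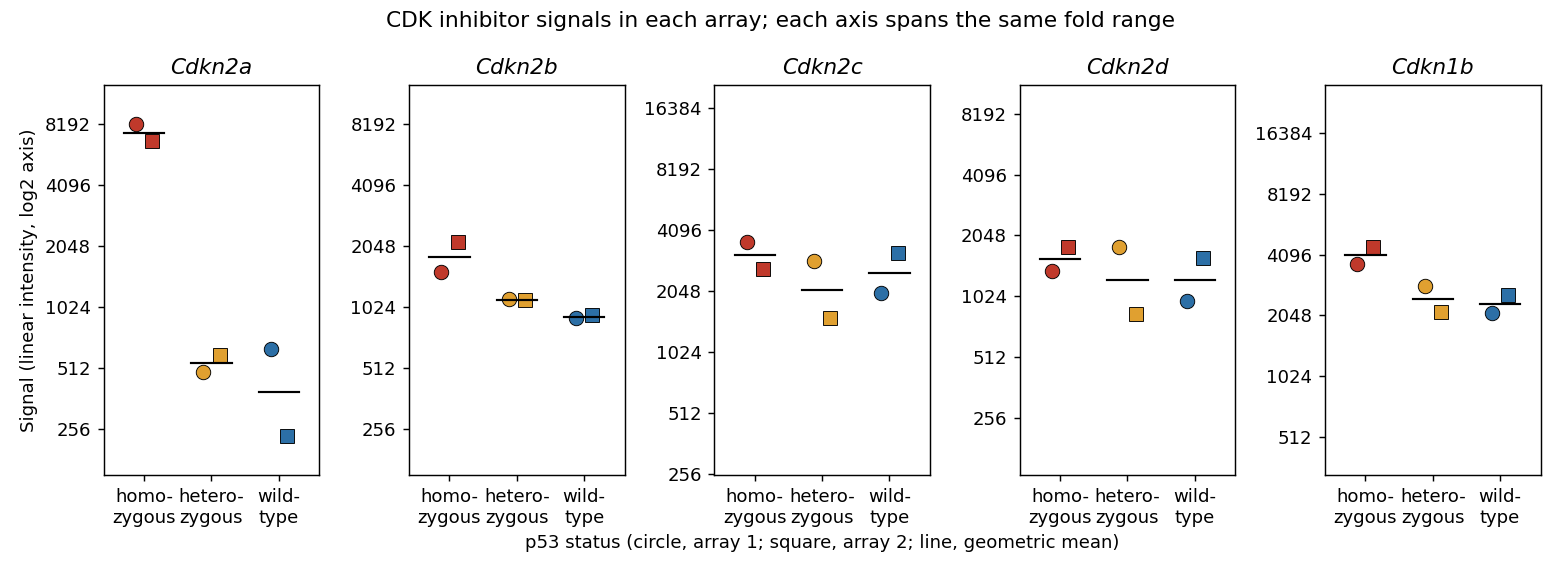
Signal of the 5 CDK inhibitor genes in each array (linear intensity on a log2 axis, each panel spanning the same fold range), with circles for array 1, squares for array 2 and lines for the geometric mean of each group. Cdkn2a lies between 6769 and 8180 in homozygous cells and between 237 and 639 in all others, while Cdkn2c and Cdkn2d overlap between groups.

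Cdkn2c and Cdkn2d, which encode p18Ink4c and p19Ink4d and are expressed in many dividing cells, did not separate the genotypes. Cdkn2c gave 3595 and 2645 in homozygous cells, 2876 and 1502 in heterozygous cells, and 2008 and 3158 in wild-type cells. Cdkn2d gave 1373 and 1805 in homozygous cells, 1788 and 844 in heterozygous cells, and 974 and 1583 in wild-type cells. For both genes the arrays of the 3 groups overlapped, and the lowest signal was in heterozygous array 2 for each.

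The log2 difference of homozygous over wild-type cells was 0.29 ± 0.43 for Cdkn2c and 0.34 ± 0.46 for Cdkn2d, each smaller than its error. Without wild-type array 1, these differences were -0.034 and -0.0078. Against heterozygous cells the differences were 0.57 ± 0.43 and 0.36 ± 0.46, and without heterozygous array 2 that of Cdkn2c was 0.10 and that of Cdkn2d -0.18. Between heterozygous and wild-type cells Cdkn2c differed by -0.28 ± 0.43 (95% interval -1.37 to 0.81) and Cdkn2d by -0.02 ± 0.46 (95% interval -1.19 to 1.16), with a limma adjusted p of 0.99996 for each.

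Across the 5 genes, 5 had a positive log2 difference of homozygous over wild-type cells, with a median of 0.80 against -0.09 over all tested genes. In 3 of the 5, Cdkn2a, Cdkn2b and Cdkn1b, the homozygous arrays lay above both wild-type arrays, which was so for 27.4% of all tested genes. The same 3 genes lay above both heterozygous arrays, against 28.2% of tested genes, and the median difference was 0.70 against -0.08. They lay above all 4 other arrays, as did 23.4% of tested genes. These counts use the contrasts behind the choice of genes and are descriptions. Between heterozygous and wild-type cells, 1 of the 5, Cdkn2b, was higher with no overlap, against 13.2% of tested genes. The median there was 0.09 against 0.00.

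Another scaling of the arrays shifts all genes together. With each array centred on its median log2 signal, the median over all tested genes was 0.22 for homozygous over wild-type cells and 0.14 for homozygous over heterozygous cells. Relative to that shift the order of the members was unchanged, with Cdkn2a at 4.56, Cdkn2b at 1.29, Cdkn1b at 1.11, Cdkn2d at 0.65 and Cdkn2c at 0.60 for homozygous over wild-type cells.

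**Figure D2:**
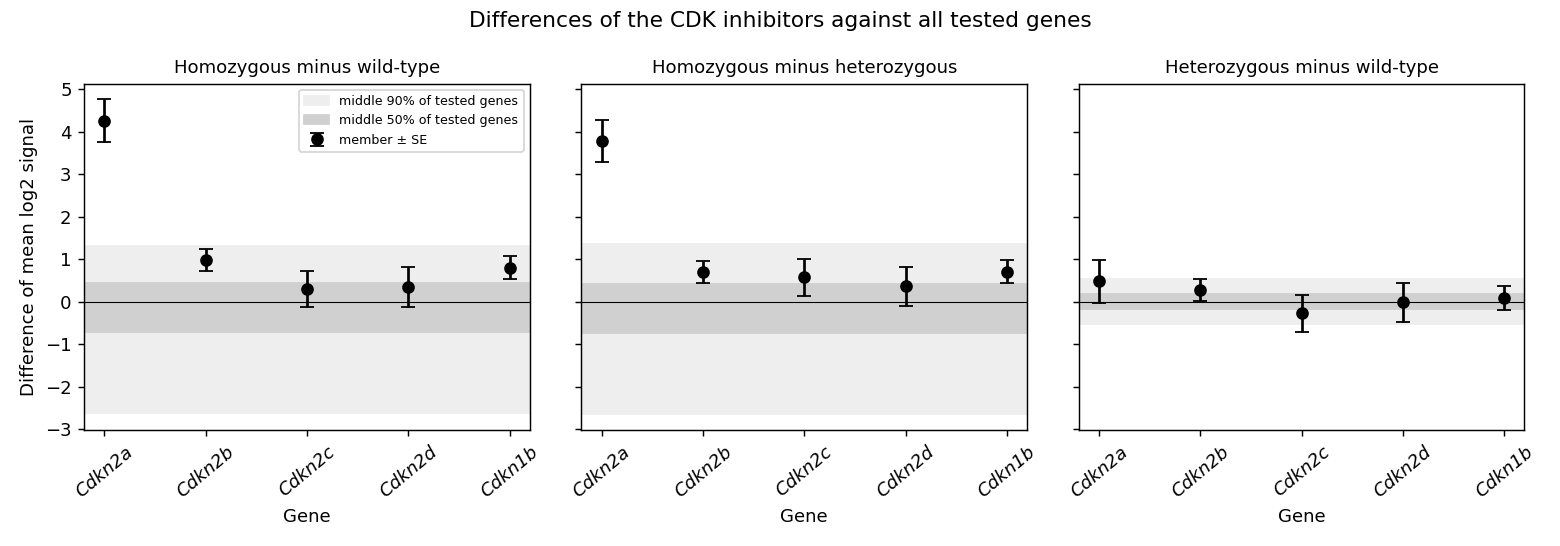
Difference of mean log2 signal for the 5 CDK inhibitor genes in each comparison, as points with the limma SE, over grey bands for the middle 50% and 90% of the 10916 tested genes. Cdkn2a stands at 4.26 and 3.78 in the comparisons with homozygous cells, and the 5 genes lie between -0.28 and 0.48 for heterozygous minus wild-type cells.

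Likeness among the 5 genes was described over the 6 arrays. Cdkn2a, Cdkn2b and Cdkn1b followed one another, with Pearson r of 0.89 for Cdkn2a and Cdkn2b, 0.91 for Cdkn2b and Cdkn1b, and 0.82 for Cdkn2a and Cdkn1b (n = 6 arrays). Cdkn2c and Cdkn2d followed each other at r = 0.80. Cdkn1b also followed Cdkn2d at 0.74 and Cdkn2c at 0.64, so the members did not split into separate sets. Cdkn2b followed Cdkn2d at 0.46 and Cdkn2c at 0.29, and Cdkn2a followed Cdkn2c at 0.33 and Cdkn2d at 0.23. These correlations describe 6 arrays in 3 genotypes, and a gene that is high in both homozygous arrays is bound to correlate with Cdkn2a. Genotype, age and array-wide differences are shared by all the points.

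Within each genotype, the difference of array 2 minus array 1 was set beside that of E2F target genes, most of which serve DNA replication. Of 16 tested E2F target genes, 3 were higher in array 2 of the homozygous pair (median log2 difference -0.59), 0 in the heterozygous pair (median -1.47) and 16 in the wild-type pair (median 1.04). Over all tested genes, 52.7%, 56.9% and 47.5% were higher in array 2 of the homozygous, heterozygous and wild-type pairs, with medians of 0.04, 0.07 and -0.03. The numbers 1 and 2 only name the arrays in the homozygous and wild-type pairs. In the heterozygous pair, array 1 is labelled with an age of 9 weeks and array 2 with 12 weeks. There, age and other differences between the 2 arrays cannot be told apart. Cdkn2c had the same sign as the E2F median in each pair, at -0.44 in the homozygous, -0.94 in the heterozygous and 0.65 in the wild-type pair. Cdkn2d had it in the heterozygous and wild-type pairs, at -1.08 and 0.70, and was 0.39 in the homozygous pair. Cdkn1b had the same signs as Cdkn2d with smaller differences, at 0.27 in the homozygous, -0.43 in the heterozygous and 0.29 in the wild-type pair. Cdkn2b was 0.50 in the homozygous pair, more than Cdkn2d. It differed little in the others, at -0.01 in the heterozygous and 0.05 in the wild-type pair. Cdkn2a was -0.27 in the homozygous pair, with the sign of the E2F median, and had the opposite sign at 0.28 in the heterozygous and -1.43 in the wild-type pair. The part of proliferation in these within-pair differences was not tested.

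**Figure D3:**
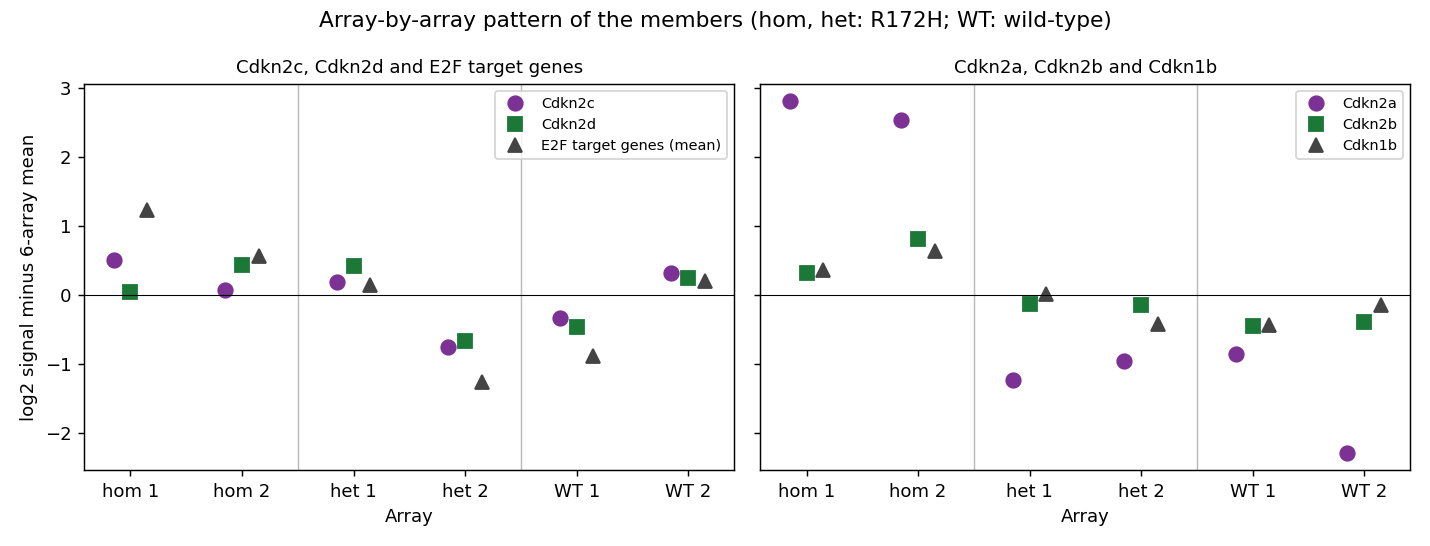
log2 signal of each gene minus its mean over the 6 arrays, with the mean of the 16 tested E2F target genes beside Cdkn2c and Cdkn2d (left) and Cdkn2a, Cdkn2b and Cdkn1b (right). In the left panel heterozygous array 2 is lowest for all 3 items, at -0.75, -0.67 and -1.27, and in the right panel the 2 homozygous arrays are highest for all 3 genes.

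The genes most like Cdkn2a over the 6 arrays were sought among the 2595 tested genes whose log2 signal ranged over at least 2. Polr1a, which encodes the largest subunit of RNA polymerase I, was most alike at r = 0.998. Its signal was 1086 and 985 in homozygous cells, 314 and 340 in heterozygous cells, and 350 and 255 in wild-type cells. Like Cdkn2a it was high in both homozygous arrays and lowest in wild-type array 2. Prmt5, an arginine methyltransferase, followed at r = 0.987, then Ankrd26 at 0.983, the anthrax toxin receptor gene Antxr1 at 0.977 and the tRNA methyltransferase gene Trmt61a at 0.976. The most opposed genes were Sema4b, a semaphorin gene, at -0.999, Emx2os and the uroplakin gene Upk1b at -0.994 each, Parm1 at -0.992 and the sodium channel subunit gene Scn2b at -0.991. Sema4b gave 359 and 401 in homozygous cells, 1206 and 1057 in heterozygous cells, and 1097 and 1643 in wild-type cells. Upk1b is 1 of the 12 ovarian surface markers above.

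The other CDK inhibitors on the array did not share the pattern. Cdkn1a, which encodes p21 and is a direct p53 target, fell in homozygous cells. Its signal was 192 and 111 in homozygous cells, 1548 and 1437 in heterozygous cells, and 2519 and 2646 in wild-type cells. The log2 difference was -4.14 ± 0.32 against wild-type cells (limma adjusted p = 0.0136) and -3.35 ± 0.32 against heterozygous cells (limma adjusted p = 0.0182), with no overlap of the homozygous arrays with any other. The calls ended when 1 heterozygous or wild-type array was left out, where the adjusted p for homozygous against wild-type cells lay between 0.0796 and 0.148, while the difference stayed between -4.54 and -3.75 with any 1 array left out. It also ended without the filter on dim genes (limma adjusted p = 0.0535 against wild-type cells). A second Cdkn1a probe set gave 5.14 and 4.03 in homozygous cells, both under background, 524 and 483 in heterozygous cells, and 888 and 832 in wild-type cells.

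Cdkn1c, which encodes the imprinted inhibitor p57Kip2, was too dim to enter the fit. It was below the background level of 24.5 in both homozygous arrays, at 59.6 and 97.3 in heterozygous cells, and at 291 and 69.9 in wild-type cells. Computed against background, it was at least 5.81-fold lower in homozygous than in wild-type cells and at least 3.11-fold lower than in heterozygous cells, with no test. The bound against wild-type cells rests on their array 1: it was 2.85-fold without that array and 11.9-fold without array 2. Cdkn3, a phosphatase gene that acts on CDKs and is expressed in dividing cells, overlapped between groups, at 1605 and 2623 in homozygous cells, 1962 and 574 in heterozygous cells, and 661 and 1931 in wild-type cells.

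The pathway around the 5 genes was read from lists that hold 118 genes in all. Of these, 115 were named on the array and 106 passed the filter. Against wild-type cells, 2 of the 106 were called at a limma adjusted p under 0.05, Cdkn1a and Tbx2, both lower, against 2.67% of all tested genes (0.412% higher and 2.25% lower). Against heterozygous cells, 2 were called, Cdkn1a lower and Ccne1 higher, against 4.09% of all tested genes (0.87% higher and 3.22% lower). Both shares, 1.89% each, lie under these backgrounds. The comparisons share the homozygous arrays. At an unadjusted p under 0.05 lay 28.9% of all tested genes against wild-type cells and 30.6% against heterozygous cells, and the counts at that level in each list are to be read against these shares. Between heterozygous and wild-type cells limma called 0 of the 106 and 0 of the 10916 tested genes, a background of 0%, and at an unadjusted p under 0.05 the counts were 0 and 71.

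**Figure D4:**
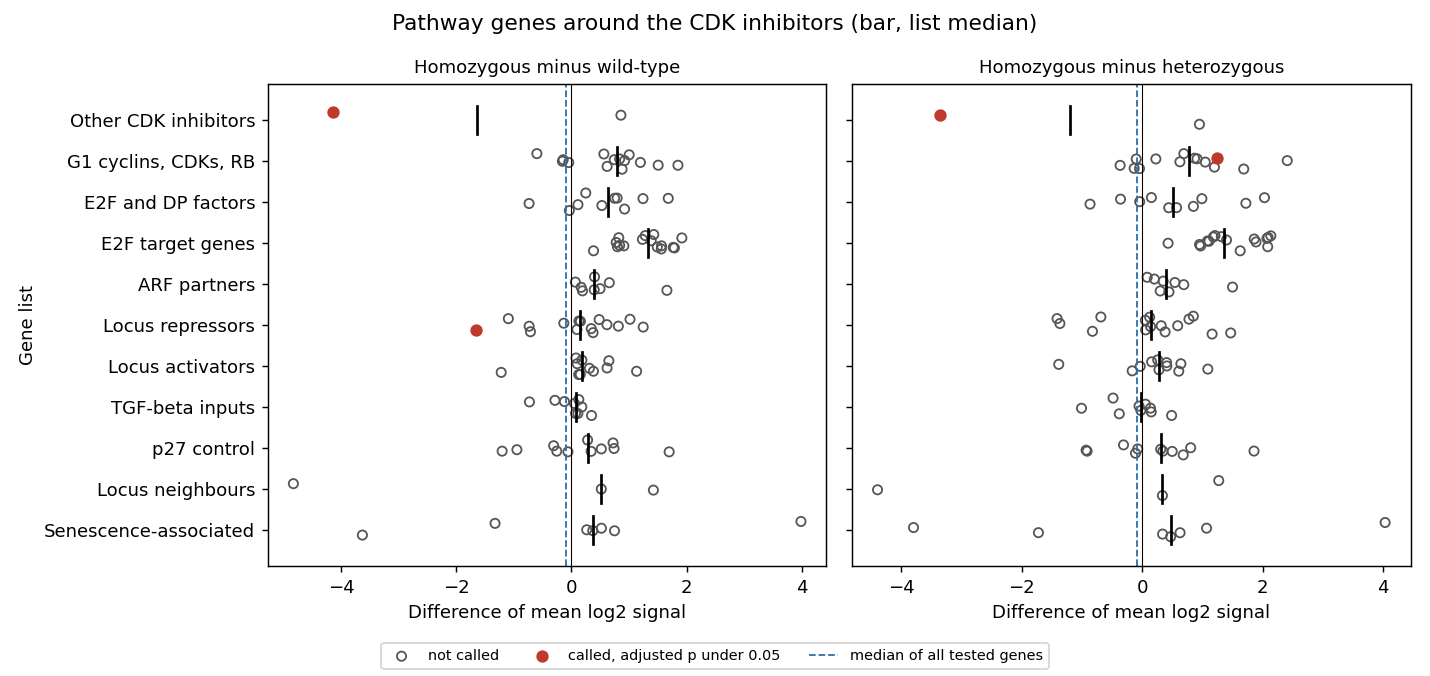
Difference of mean log2 signal for each of the 106 tested pathway genes, in rows by list, for homozygous minus wild-type cells (left) and homozygous minus heterozygous cells (right). Filled points are genes called at a limma adjusted p under 0.05, short bars are list medians, and the dashed line is the median of all tested genes; the 16 E2F target genes lie right of 0 in both panels, with none called.

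Among the kinases and cyclins that INK4 proteins act on, Cdk4 overlapped between groups, at 3940 and 6261 in homozygous cells, 5799 and 4866 in heterozygous cells, and 4748 and 6317 in wild-type cells. Cdk6, the other INK4 target, was higher in both homozygous arrays, at 3708 and 2127, against 1767 and 1336 in heterozygous cells and 1470 and 1487 in wild-type cells. It did not pass the test (limma adjusted p = 0.157 against wild-type cells). Ccnd2, a D-type cyclin, was brightest in both homozygous arrays, at 15918 and 15264, against 7468 and 9188 in heterozygous cells and 5849 and 7881 in wild-type cells, and also missed the threshold (limma adjusted p = 0.0705 against wild-type cells).

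Ccnd1, another D-type cyclin, differed greatly between the homozygous arrays, at 7776 and 493, against 2470 and 1131 in heterozygous cells and 873 and 1859 in wild-type cells. Ccne1, which encodes the cyclin E partner of CDK2, gave 520 and 501 in homozygous cells, 235 and 199 in heterozygous cells, and 257 and 252 in wild-type cells. It rose by 1.24 ± 0.22 log2 units over heterozygous cells (limma adjusted p = 0.0495), and its difference of 1.00 ± 0.22 from wild-type cells did not pass (limma adjusted p = 0.0705). The Ccne1 call ended without either heterozygous array, either wild-type array or homozygous array 1, where the adjusted p lay between 0.0712 and 0.317. Rb1, the RB gene itself, gave 761 and 730 in homozygous cells, 874 and 675 in heterozygous cells, and 796 and 866 in wild-type cells, with overlap. Over the 14 tested genes of this list the median difference was 0.79 against wild-type cells and 0.78 against heterozygous cells, and limma called 0 and 1 (5 and 4 at an unadjusted p under 0.05, against 28.9% and 30.6% of all tested genes).

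Downstream of RB, the 10 E2F and DP factors had a median difference of 0.64 against wild-type cells and 0.51 against heterozygous cells, and limma called 0 of them in both (4 and 3 at an unadjusted p under 0.05). Tfdp1, the DP1 partner of E2F, gave 5794 and 4502 in homozygous cells, 2990 and 2206 in heterozygous cells, and 2449 and 2957 in wild-type cells, while Tfdp2 was higher outside the homozygous group, at 976 and 2386 in homozygous cells, 2802 and 2751 in heterozygous cells, and 2457 and 2620 in wild-type cells. E2f6, a repressive E2F, overlapped, at 690 and 1238 in homozygous cells, 1140 and 1230 in heterozygous cells, and 836 and 1070 in wild-type cells.

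All 16 tested E2F target genes had positive differences in both comparisons, with medians of 1.33 against wild-type cells and 1.36 against heterozygous cells. Limma called 0 of 16 in each, with 3 and 5 at an unadjusted p under 0.05, against 28.9% and 30.6% of all tested genes. Pcna, the sliding clamp of DNA polymerase, gave 19901 and 13400 in homozygous cells, 12594 and 5650 in heterozygous cells, and 6797 and 13331 in wild-type cells. The homozygous arrays were the 2 highest, with homozygous array 2 only just above wild-type array 2. Rrm1, a ribonucleotide reductase subunit, gave 10069 and 11465 in homozygous cells, 8635 and 7354 in heterozygous cells, and 7067 and 9578 in wild-type cells. Mcm7, a helicase subunit, gave 16256 and 12477 in homozygous cells, 10043 and 3921 in heterozygous cells, and 5167 and 11093 in wild-type cells. The list's median against wild-type cells was 0.68 without wild-type array 1, and against heterozygous cells it was 2.20 without heterozygous array 1 and 0.78 without heterozygous array 2. Its direction held in each of these, but its size rested on the low arrays.

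Of the partners through which p19Arf acts, Mdm2, the ubiquitin ligase for p53 and itself a p53 target, overlapped between homozygous and wild-type cells. It gave 1136 and 1253 in homozygous cells, 939 and 933 in heterozygous cells, and 1192 and 942 in wild-type cells. Npm1, the nucleolar protein that holds p19Arf, was brighter in both homozygous arrays, at 30636 and 24889, against 16003 and 18262 in heterozygous cells and 16038 and 19059 in wild-type cells. Trip12, a ubiquitin ligase for p19Arf, overlapped, at 5110 and 3889 in homozygous cells, 4465 and 3956 in heterozygous cells, and 3729 and 4076 in wild-type cells. Ubtf, a factor for ribosomal DNA transcription, overlapped between homozygous and wild-type cells, at 1610 and 1323 in homozygous cells, 1165 and 1206 in heterozygous cells, and 1609 and 1203 in wild-type cells. All 8 tested partners had positive differences with a median of 0.40 in both comparisons, and limma called 0 of 8 in each (2 at an unadjusted p under 0.05 in each).

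Factors that repress the Ink4b-Arf-Ink4a locus included 1 called gene. Tbx2, a T-box repressor of the locus, gave 97.4 and 78.1 in homozygous cells, 259 and 195 in heterozygous cells, and 290 and 262 in wild-type cells. It fell by 1.66 log2 units against wild-type cells (SE 0.26, limma adjusted p = 0.0480). Against heterozygous cells it missed the threshold, at -1.36 ± 0.26 (limma adjusted p = 0.0572). The call held under 4 of 16 other settings, and when a heterozygous or wild-type array was left out the adjusted p was between 0.132 and 0.277. Tbx2 is read by 1 probe set. Over the 15 tested repressors the median difference was 0.16 against wild-type cells and 0.14 against heterozygous cells. Positive differences were found for 10 and 11 of them. At a limma unadjusted p under 0.05 lay 3 and 5, against 28.9% and 30.6% of all tested genes. Bmi1, a PRC1 subunit named after its values were seen, was higher by 0.62 and 1.16. It did not pass the test (limma adjusted p = 0.272 and 0.0976).

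Among the other bright repressors, Ezh2, the methyltransferase of Polycomb complex PRC2, was higher in both homozygous arrays, at 7160 and 4775, against 2902 and 1536 in heterozygous cells and 2119 and 2861 in wild-type cells (limma adjusted p = 0.132 against wild-type cells). Id1, a helix-loop-helix inhibitor, and Phc2, a PRC1 subunit, overlapped. Id1 gave 5413 and 7785 in homozygous cells, 6506 and 6007 in heterozygous cells, and 3906 and 6392 in wild-type cells. Phc2 gave 3516 and 2292 in homozygous cells, 2888 and 2572 in heterozygous cells, and 3398 and 2842 in wild-type cells.

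Of the factors that activate the locus, limma called 0 of 11, with medians of 0.18 against wild-type and 0.28 against heterozygous cells and 3 genes at an unadjusted p under 0.05 in each comparison. Smarca4, the BRG1 remodeller, gave 4243 and 4011 in homozygous cells, 2849 and 2447 in heterozygous cells, and 2778 and 2594 in wild-type cells, with no overlap. Mapk14, which encodes p38 MAP kinase, gave 3236 and 2632 in homozygous cells, 2445 and 2434 in heterozygous cells, and 2855 and 2594 in wild-type cells. Dmtf1, which activates the Arf promoter, gave 1821 and 1847 in homozygous cells, 1581 and 1709 in heterozygous cells, and 1763 and 1479 in wild-type cells.

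TGF-beta signalling is a known activator of Cdkn2b, and the median of its 9 tested genes was 0.07 against wild-type cells and -0.02 against heterozygous cells, with single genes between -0.73 and 0.35 and between -1.01 and 0.49. Limma called 0 of 9 in each, with 0 and 1 at an unadjusted p under 0.05. Smad4, the shared SMAD, gave 4585 and 5826 in homozygous cells, 5207 and 5277 in heterozygous cells, and 4774 and 5059 in wild-type cells. The receptor gene Tgfbr1 gave 3474 and 2985 in homozygous cells, 2753 and 1909 in heterozygous cells, and 3307 and 2679 in wild-type cells. Smad3 gave 3050 and 2331 in homozygous cells, 2378 and 2421 in heterozygous cells, and 2083 and 2650 in wild-type cells. In all 3 genes the homozygous arrays overlapped with the wild-type arrays. The ligand gene Tgfb3, named after its values were seen, was the lowest of the list, at 1395 and 1082 in homozygous cells, 2072 and 2934 in heterozygous cells, and 2225 and 1859 in wild-type cells. Its homozygous arrays lay below all others, and it did not pass the test (limma adjusted p = 0.176 against wild-type and 0.0996 against heterozygous cells).

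The 11 tested genes that control p27Kip1 had medians of 0.28 against wild-type and 0.31 against heterozygous cells, and limma called 0 of them in both (4 and 3 at an unadjusted p under 0.05). Skp1, a core subunit of the SCF ubiquitin ligase, gave 14296 and 12461 in homozygous cells, 13642 and 14435 in heterozygous cells, and 13325 and 14496 in wild-type cells. Cks1b, the cofactor that lets SCF bind p27Kip1, gave 20430 and 17328 in homozygous cells, 15277 and 8995 in heterozygous cells, and 7758 and 16716 in wild-type cells, with the homozygous arrays highest. Ddb1, a CUL4 adaptor, gave 5843 and 5981 in homozygous cells, 5313 and 4075 in heterozygous cells, and 5045 and 4306 in wild-type cells.

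Skp2, which encodes the SCF subunit that recognises p27Kip1, was named after its values were seen. It gave 3526 and 2423 in homozygous cells, 1066 and 611 in heterozygous cells, and 860 and 944 in wild-type cells, a difference that did not pass the test (limma adjusted p = 0.0692 against wild-type cells). Skp2 and Cdkn1b were thus both highest in the homozygous arrays at the transcript level. Foxo1 and Foxo3 of the same list, also named after their values were seen, were lowest there. Foxo1 gave 426 and 305 in homozygous cells, 687 and 671 in heterozygous cells, and 776 and 622 in wild-type cells. Foxo3 gave 312 and 523, 724 and 816, and 1166 and 739 in the same order. Neither passed the test (limma adjusted p = 0.106 and 0.118 against wild-type cells).

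The genes beside Cdkn2a on the chromosome were read in RefSeq order, 5 tested genes on each side. Mtap, the nearest tested gene on one side and often deleted together with CDKN2A in human tumours, gave 10886 and 3576 in homozygous cells, 2538 and 2632 in heterozygous cells, and 2120 and 2548 in wild-type cells. Both homozygous arrays were above the rest, but their own spread was wide, and the log2 difference of 1.42 ± 0.54 from wild-type cells did not pass (limma adjusted p = 0.164). It was 0.62 without homozygous array 1 and 2.23 without homozygous array 2, each with 1 homozygous array left. Against heterozygous cells the difference was 1.27 ± 0.54 (limma adjusted p = 0.186), 0.47 without homozygous array 1 and 2.07 without homozygous array 2.

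On the far side of Cdkn2b, Elavl2, which encodes an RNA-binding protein of neurons, was dim in the homozygous arrays and did not overlap with the other groups. It gave 55.9 and 1.54 in homozygous cells, 222 and 170 in heterozygous cells, and 247 and 281 in wild-type cells. Elavl2 did not pass the test (limma adjusted p = 0.133 against wild-type and 0.145 against heterozygous cells). Dmrta1 of the locus list, named after its values were seen, was too dim to enter the fit. Its signal was 23.2 and 14.6 in homozygous cells, both under background, 95.6 and 73.0 in heterozygous cells, and 151 and 73.9 in wild-type cells. Tusc1, named here as a neighbour after its values were seen, gave 39.1 and 48.5 in homozygous cells, 276 and 304 in heterozygous cells, and 361 and 341 in wild-type cells, and fell by 3.01 log2 units against wild-type cells (SE 0.23, limma adjusted p = 0.0136). That call, too, ended when 1 heterozygous or wild-type array was left out, with a limma adjusted p between 0.0796 and 0.148. The direction therefore differed among neighbours, and the other tested ones, Mllt3, Focad, Klhl9, Caap1 and Plaa, lay between -0.46 and 0.57 in the same comparison. Hacd4, the remaining one, gave 51.9 and 1538 in homozygous cells, 3862 and 4493 in heterozygous cells, and 2611 and 3866 in wild-type cells. Faf1, an apoptosis-related gene of the same list that is not among these neighbours, gave 2820 and 2508 in homozygous cells, 2000 and 2216 in heterozygous cells, and 1824 and 1885 in wild-type cells, and did not pass the test (limma adjusted p = 0.187 against wild-type cells).

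**Figure D5:**
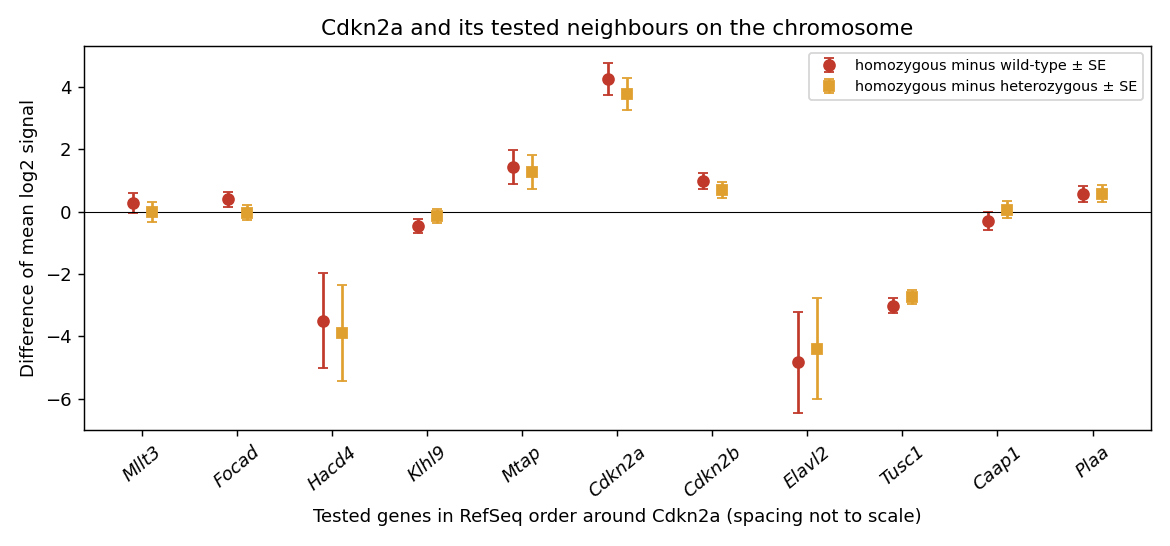
Difference of mean log2 signal with its limma SE for Cdkn2a and the 5 nearest tested genes on each side in RefSeq order, spacing not to scale. Cdkn2a stands highest at 4.26 and 3.78, Mtap and Cdkn2b lie above 0, and Hacd4, Elavl2 and Tusc1 lie below 0.

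Senescence-associated genes, read because high INK4 products mark senescent cells, had medians of 0.37 against wild-type and 0.47 against heterozygous cells over 7 tested genes. Limma called 0 of 7 in each, with 2 at an unadjusted p under 0.05 in each. Igfbp7, a secreted binding protein, gave 5492 and 5595 in homozygous cells, 2834 and 6770 in heterozygous cells, and 6025 and 2473 in wild-type cells. Igfbp3 split the homozygous pair, at 48.3 and 7058, against 6857 and 9524 in heterozygous cells and 8742 and 5954 in wild-type cells. Lmnb1, the lamin B1 gene whose loss marks senescence, overlapped at 3693 and 3337 in homozygous cells, 3858 and 1333 in heterozygous cells, and 2212 and 3845 in wild-type cells. Hmga2, named after its values were seen, encodes a chromatin protein known to lower Cdkn2a products in mouse stem cells. It gave 6748 and 1147 in homozygous cells, 224 and 129 in heterozygous cells, and 127 and 243 in wild-type cells, and did not pass the test (limma adjusted p = 0.0737 against wild-type cells). Glb1 of the same list, also named after its values were seen, went the other way. It gave 613 and 729 in homozygous cells, 1488 and 3252 in heterozygous cells, and 1906 and 1469 in wild-type cells. Its difference did not pass the test either (limma adjusted p = 0.125 against wild-type cells).

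Summed markers of macrophage, endothelial, and granulosa and theca cells were lower in both homozygous arrays, while those of fibroblasts split the homozygous pair. The summed signal of 10 macrophage markers was 496 to 709 in homozygous cells, 5145 to 5456 in heterozygous cells and 2540 to 2865 in wild-type cells, with Ctss, Lyz2, Ptprc and Tyrobp below background in both homozygous arrays. That of 8 endothelial markers was 1911 to 2744 in homozygous cells, 9083 to 10375 in heterozygous cells and 10466 to 10908 in wild-type cells, with Emcn, Icam2, Pecam1, Tek and Tie1 below background in both homozygous arrays. Of these, Emcn, Pecam1 and Tie1 were also below background in both heterozygous arrays, and Tie1 in both wild-type arrays. Most of the endothelial sum was Esam. It gave 1791 and 2610 in homozygous cells, 6836 and 7906 in heterozygous cells, and 7222 and 8168 in wild-type cells. Kdr and Icam2 made up most of the rest in heterozygous and wild-type cells. Pecam1, Cdh5, Tie1, Tek and Emcn were no brighter than 55.8 in any array. The lower endothelial sum in homozygous cells was thus mainly that of Esam, Kdr and Icam2. The summed signal of 8 granulosa and theca markers was 620 to 3151 in homozygous cells, 3630 to 5246 in heterozygous cells and 5134 to 8451 in wild-type cells. That of 8 fibroblast markers spanned 22867 to 88185 in homozygous cells, around 45514 to 58278 in heterozygous cells and 47784 to 65395 in wild-type cells. Single markers went against their sums. Cd14 of the macrophage list was 222 in homozygous array 1, 6.28 in homozygous array 2 and 45.8 to 128 in the other groups. Inhba of the granulosa and theca list was 389 and 1247 in homozygous cells and 287 to 438 in the other groups. Star was the brightest of that list in heterozygous and wild-type cells. The part of these cell types in the signals of the CDK inhibitors was not tested.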

How the data were processed

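RNA from 6 samples of plated cells was extracted with RNeasy and labelled following standard Affymetrix steps, per the labels' protocols. The deposited values are linear probe set intensities. The submitters' processing notes name RMA, with a version not given in the sources used here, but the mean of the middle 96% of values is 499.99 in every array and the quantiles differ, so the scale is that of linear scanner-software signals. log2 was taken with no offset, and no normalisation was added.

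Of 45101 probe sets, 34958 named 1 gene symbol, 932 several and 9211 none, and 34754 were matched to RefSeq by Entrez identifier. Probe sets with several or no symbols were left out. Each of 18194 genes was read by its brightest probe set, a choice that mattered for 9012. The 10916 genes with a geometric mean signal of at least 60.2, the 40th percentile, were tested. Background was 24.5, the highest of 18 bacterial Trpn control values. The mutated gene's own transcript is not reported here.

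limma 3.58.1 in R 4.3.3 fitted 3 group means to the 6 arrays, with 3 residual and 2.26 prior degrees of freedom and Benjamini-Hochberg adjustment over all tested genes. It was tested on simulated data. Array data have no depth, and 2 arrays a group limit the precision: an exact two-sided permutation test of 2 against 2 cannot go below 0.333. The members and lists were chosen with earlier results of these data known. The text names every called gene, the 3 brightest genes of each list, Cdkn1a, Cdkn1c, Mtap, Cdk4, Cdk6, Ccnd1, Rb1 and Mdm2, and the 5 genes most and least like Cdkn2a, and says where others were added. Promoters are RefSeq's. Figures were drawn with matplotlib 3.10.9 in Python 3.11.15. The alternatives covered scaling, offsets, filters, probe set choice, weights, groups and arrays left out.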

Additional observations from a re-analysis of the deposited data

How the results depend on the processing

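Cdkn2a, Cdkn2b and Cdkn1b stayed higher in homozygous cells under all 17 alternatives, but many of these could not alter the sign. Another filter, only the 2 groups fitted, the replicate block or array weights left the Cdkn2a difference from wild-type cells at 4.26. The homozygous arrays of these genes lay above all others, so leaving out arrays could not turn the sign. Cdkn2a was higher by 3.54 to 4.97 against wild-type and by 3.64 to 4.00 against heterozygous cells, the last with arrays centred on their medians. Against wild-type cells, median centring gave 1.29 for Cdkn2b and 1.11 for Cdkn1b, and averaging probe sets gave 0.48 for Cdkn1b, or 0.42 against heterozygous cells. The rest turned with 1 array: without wild-type array 1, Cdkn2c and Cdkn2d were -0.034 and -0.0078 against wild-type cells, and without heterozygous array 2 Cdkn2d was -0.18 against heterozygous cells. Leaving out 1 array in turn gave, against wild-type cells, 3.54 to 4.97 for Cdkn2a, 0.73 to 1.23 for Cdkn2b, -0.034 to 0.62 for Cdkn2c, -0.0078 to 0.69 for Cdkn2d and 0.65 to 0.94 for Cdkn1b. Against heterozygous cells the range for Cdkn2d was -0.18 to 0.90. For heterozygous over wild-type cells, 1 array left out gave -0.24 to 1.19 for Cdkn2a, -0.74 to 0.19 for Cdkn2c, -0.56 to 0.53 for Cdkn2d and -0.13 to 0.30 for Cdkn1b. Single values of the other sign were 0.050 for Cdkn2c and 0.33 for Cdkn2d without wild-type array 2, 0.068 for Cdkn2d with median centring and -0.057 for Cdkn1b without wild-type array 1. With wild-type array 2 and heterozygous array 1 both left out, an alternative chosen after seeing the data, Cdkn2a was -0.10.

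Counts of called genes were unstable. Against wild-type cells 291 genes were called, but 605 with signals raised to background, 604 with 16 added, 190 with probe sets averaged, and 0 without a filter, with only the 2 groups fitted or with those 2 arrays left out, and 0 to 2663 with 1 array left out. Of pathway genes 2 were called, but 1 with quantile or median scaling, the 60th percentile filter, averaged probe sets or array weights, 0 without a filter, with 2 groups or without those 2 arrays, and 0 to 19 with 1 array left out. Against heterozygous cells 446 were called, but 731 raised to background, 718 with 16 added, 17 without a filter, 281 averaged, 9 with 2 groups, 293 with array weights, 0 without those 2 arrays, and 0 to 2841 with 1 array left out. Of pathway genes 2 were called there, but 6 raised to background, 4 with 16 added, 1 with median scaling or array weights, 0 without a filter, with 2 groups or without those 2 arrays, and 0 to 22 with 1 array left out. For heterozygous over wild-type cells 0 genes were called by limma under all 17 alternatives, with 71 at an unadjusted p under 0.05 in the main setting.

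The labels do not say whether the replicate numbers pair the samples, and 2 arrays a group cannot decide it. Deviations from group means of same-numbered arrays correlated at 0.16 for homozygous and heterozygous, -0.10 for homozygous and wild-type and -0.30 for heterozygous and wild-type arrays. With the replicate number as a block, limma called 0 genes and 0 pathway genes against wild-type cells, and 19 genes and 0 pathway genes against heterozygous cells. Depth does not apply to arrays: precision is limited by 2 arrays a group, and signals near 24.5 have uncertain folds.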
